A study of Mus musculus with 12 samples.

Results

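The genes described here encode the subunits of the oxidative phosphorylation (OXPHOS) machinery. They were taken from the count table as every protein-coding gene of the mitochondrial chromosome, plus the protein-coding genes whose names begin with Ndufa, Ndufb, Ndufc, Ndufs or Ndufv and a digit, Uqcr, Cox4 to Cox8 or Atp5, or are Sdha, Sdhb, Sdhc or Sdhd. This gave 101 of the 56748 genes in the table, 88 in the nuclear genome and 13 in mitochondrial DNA (mtDNA). Complex I holds 44 of them, complex II 4, complex III 9, complex IV 24 and complex V 20, with Ndufa4 and Ndufa4l2 counted under complex IV, where the Ndufa4 protein is now placed. The complex IV genes include Cox5b-ps, a copy of Cox5b that is named as a pseudogene although its listed biotype is protein-coding. It passed the filter on low counts and is part of the counts and medians below.

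RNA-seq was run on whole livers of 12 mice that had been fasted for 24 h, with 4 livers in each of 3 genotypes. WT livers came from control mice labelled as triple floxed for CPT1A, CPT1B and CPT2, SKO livers from mice with a liver-specific loss of CPT2, and DKO livers from mice with a liver-specific loss of both ATF3 and CPT2. The study's text names double-floxed Atf3 and Cpt2 animals as controls for its RT-qPCR on these lines and calls its RNA-seq controls WT only, so the floxed alleles of the WT livers rest on the label. CPT2 is the inner-membrane carnitine palmitoyltransferase that long-chain fatty acids need to enter β-oxidation, and ATF3 is a stress-induced transcription factor. The knockouts were made by crossing floxed lines to albumin-Cre mice, in which the promoter of this hepatocyte gene drives Cre. Which liver cells had recombined was not measured here, and the labels give no age, sex or batch for single livers.

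OXPHOS passes electrons from NADH through complex I, or from succinate through complex II, to coenzyme Q, then through complex III, cytochrome c and complex IV to oxygen, and complex V makes ATP from the resulting proton gradient. β-Oxidation feeds this chain with NADH and with electrons that reach coenzyme Q, and the fasted liver relies on it for gluconeogenesis and ketogenesis. Complexes I, III, IV and V mix proteins made from nuclear and from mtDNA genes, while complex II is built from nuclear genes alone.

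Each liver had between 14710304 and 20030055 counts, and a count of 0 allows up to 0.150 to 0.204 CPM (counts scaled to library size), a limit that covers counting error only. In WT, SKO and DKO livers, in that order, the targeted gene Cpt2 was at 234 ± 24.4, 127 ± 22.7 and 117 ± 11.8 CPM (mean ± SD, n = 4), and it fell in both knockouts (log2 fold changes -0.89 and -0.99, edgeR adjusted p = 0.000826 and 0.00627). Atf3 was at 1.55 ± 0.489, 30.7 ± 16.8 and 8.12 ± 5.71 CPM in the same order. It rose in SKO livers (log2 fold change 4.28, edgeR adjusted p = 1.99e-05), and its difference between DKO and SKO livers was -1.91 (adjusted p = 0.701), so that the counts alone do not separate the knockouts. DKO replicates 1, 2 and 3 held 164 to 265 counts of Atf3 against 17 to 39 in WT livers, and gene counts do not resolve deleted exons, so in these libraries the loss of ATF3 in DKO livers rests on the label. The study describes the mice of its RNA-seq as male, but SKO replicate 3 and DKO replicate 4 held 18063 and 20855 counts of Xist against 1 to 19 in the other 10 livers. DKO replicate 4 stood apart further. Its 7 hepatocyte markers summed to 95306 CPM, against 44089 to 52830 in the other DKO livers, while WT livers ranged from 78375 to 97369 and SKO livers from 45722 to 71912. It also held 5 counts of Atf3 against 164 to 265 in the other DKO livers. Of these 7 markers 4 fell and 0 rose between SKO and WT livers, and 1 fell and 0 rose between DKO and WT livers (edgeR adjusted p under 0.05). Of all genes tested, 15.4% fell and 16.7% rose in SKO livers, and 4.39% fell and 6.06% rose in DKO livers. Summed markers of stellate cells spanned 275 to 338, 382 to 533 and 358 to 443 CPM in the WT, SKO and DKO groups, and those of cholangiocytes 27.9 to 33.3, 7.41 to 14.5 and 9.60 to 31.3 CPM. Of 8 stellate markers 2 rose and 0 fell in SKO livers, and 0 were called in DKO livers. Of 4 tested cholangiocyte markers 2 fell in SKO and 1 fell in DKO livers, and 0 rose. Erythroid markers summed to 113 to 249, 156 to 533 and 127 to 713 CPM, and of 5 genes 2 globins rose and Alas2 fell in SKO livers and Alas2 fell in DKO livers. Macrophage markers summed to 181 to 366, 180 to 432 and 110 to 357 CPM, where of 7 genes Cd68 rose in SKO and Marco fell in DKO livers. Markers of skeletal or heart muscle reached at most 1.70 CPM and those of fat at most 1.18 CPM in any liver. In whole liver, fewer cells of a type and less RNA per cell cannot be told apart, and the part of cell makeup in the results was not tested. All p-values measure the spread between these livers.

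Relative to the nuclear subunit genes, the mtDNA genes held fewer counts in every DKO liver than in any WT liver. The ratio of mtDNA to nuclear subunit counts, which no scaling of the libraries alters, averaged 4.44 ± 0.402, 3.65 ± 0.642 and 3.40 ± 0.322 in the WT, SKO and DKO groups (mean ± SD, n = 4). All 4 DKO livers, at 2.95 to 3.71, lay below all 4 WT livers, at 4.06 to 4.95, while SKO livers reached 4.18. The separate shares depended on the total they were set against. Of all raw counts, the 88 nuclear genes held 1.14 to 1.19% among WT livers, 1.22 to 1.60% among SKO livers and 1.20 to 1.54% among DKO livers, without overlap between WT and either knockout. Of TMM-scaled totals, the scale of the CPM values and tests, they held 1.22 to 1.28%, 1.16 to 1.59% and 1.20 to 1.33%, and both knockouts overlapped WT. SKO replicate 1 was then below every WT liver, and only 16 of its 81 tested nuclear genes were above the WT mean. The 13 mtDNA genes held 4.68 to 5.91%, 4.50 to 5.88% and 4.11 to 4.70% of raw counts, with overlap, and 5.19 to 6.02%, 4.28 to 5.63% and 3.92 to 4.45% of TMM-scaled totals, where DKO and WT livers were apart. Nuclear rRNA took 0.452 to 1.36%, 0.713 to 1.46% and 1.40 to 2.80% of raw counts in the same order, so that it too was apart between DKO and WT livers, and its part in the mtDNA values was not tested. No test was run on these shares.

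**Figure D1:**
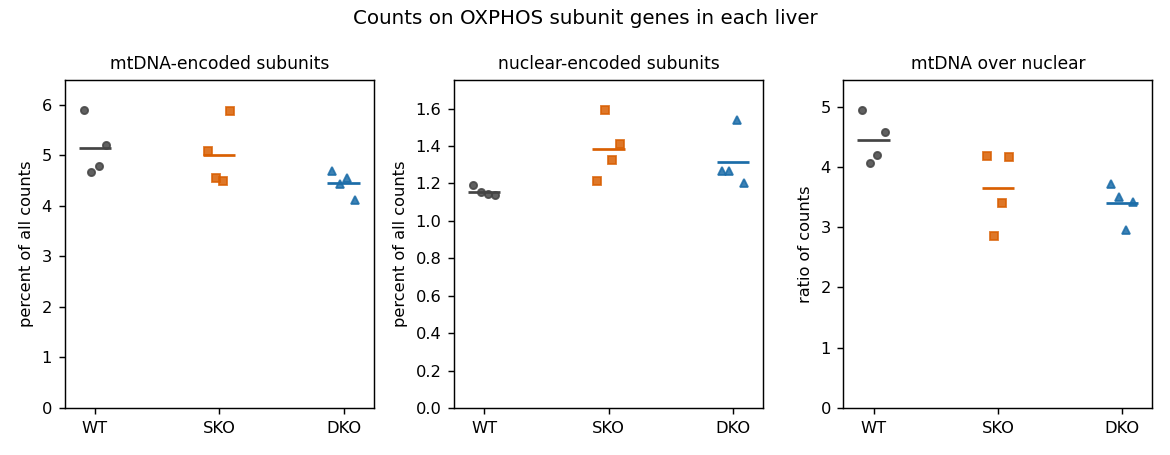
Each point is 1 liver and each bar the mean of 4 livers; the panels give, from left to right, the percent of all counts on mtDNA-encoded subunit genes, the percent on nuclear-encoded ones, and the ratio of the former to the latter. Shares are of raw totals; on these the nuclear share is 1.14 to 1.19% in WT livers and at least 1.20% in each knockout liver, a separation that is lost on TMM-scaled totals, and the ratio is at most 3.71 in DKO livers against at least 4.06 in WT livers.

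Few of the nuclear subunit genes passed the test between SKO and WT livers. Of the 88, 81 passed the filter on low counts, and 4 rose and 2 fell between SKO and WT livers (edgeR quasi-likelihood test, Benjamini-Hochberg adjusted p under 0.05). That is 7.41% of the tested nuclear members, beside 32.1% of all 14261 genes tested (16.7% higher and 15.4% lower). The median log2 fold change of the 81 genes was 0.07, a fold of 1.05, beside 0.03 over all genes tested. For 59 of the 81, the whole 95% interval lay within 1.5-fold of WT in either direction. The groups did not overlap for 10 of the 81, beside 33.2% of all genes tested. At an unadjusted p under 0.05, 7 were higher and 4 lower, beside 42% of all genes in either direction.

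The genes that rose belong to complexes III, IV and V. Atp5g3 (ENSMUSG00000018770, chromosome 2) and Atp5g2 (ENSMUSG00000062683, chromosome 15) encode the c subunit of the complex V proton rotor. Atp5g3 stood at 413, 417, 414 and 398 CPM in WT livers and at 473, 691, 568 and 616 CPM in SKO livers. Each SKO liver was above each WT liver, and the gene rose by 0.51 (SE 0.14) on the log2 scale (edgeR adjusted p = 0.0142). Atp5g2 stood at 85.2, 84.5, 93.6 and 93.2 CPM in WT livers and 110, 150, 126 and 117 CPM in SKO livers, again without overlap (log2 fold change 0.49, SE 0.13, adjusted p = 0.0110). The third c-subunit gene, Atp5g1, named here after its values were seen, encodes the same mature protein and was at 143 ± 8.50 CPM in WT and 142 ± 30.4 CPM in SKO livers (log2 fold change -0.02, 95% interval -0.35 to 0.31).

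Uqcr10 (ENSMUSG00000059534, chromosome 11), a small supernumerary subunit of complex III, stood at 95.7, 104, 96.1 and 88.5 CPM in WT and 113, 176, 125 and 135 CPM in SKO livers. It rose by 0.51 (SE 0.15) on the log2 scale with an edgeR adjusted p of 0.0188. Cox7a2l (ENSMUSG00000024248, chromosome 17), a paralog of the complex IV subunit gene Cox7a2, stood at 109, 108, 108 and 105 CPM in WT and 111, 188, 135 and 172 CPM in SKO livers. Its groups were apart by a small margin, because SKO replicate 1 lay just above the WT livers, and the log2 fold change was 0.49 (SE 0.16, edgeR adjusted p = 0.0336).

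The genes that fell belong to complexes I and II. Ndufv3 (ENSMUSG00000024038, chromosome 17), a supernumerary subunit of the NADH-binding module of complex I, stood at 61.9, 58.7, 63.1 and 62.1 CPM in WT and 35.0, 46.4, 36.2 and 46.2 CPM in SKO livers. All 4 SKO livers were below all WT livers, and the gene fell by 0.59 on the log2 scale (SE 0.13, edgeR adjusted p = 0.00411). Sdha (ENSMUSG00000021577, chromosome 13), the flavoprotein of succinate dehydrogenase, stood at 482, 557, 551 and 563 CPM in WT and 410, 383, 453 and 432 CPM in SKO livers. It fell by 0.36 on the log2 scale (SE 0.12, edgeR adjusted p = 0.0372), with WT replicate 1 the nearest to the SKO livers.

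Leaving out each of the 8 livers in turn kept the calls of Ndufv3 and Atp5g2 in 8 of 8 fits, of Atp5g3 in 7, of Uqcr10 in 5 and of Cox7a2l and Sdha in 2. Atp5g3 lost its call without WT replicate 4, and Uqcr10 without WT replicate 1, 3 or 4. Cox7a2l was called only without SKO replicate 1 or 3, and Sdha only without SKO replicate 3 or WT replicate 1. Without SKO replicate 3, the liver with Xist counts, these same 6 nuclear genes were the ones called. The c-subunit genes and several other small subunits have processed pseudogene copies in the mouse genome, and how reads shared with such copies were counted is not given in the sources used here.

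**Figure D2:**
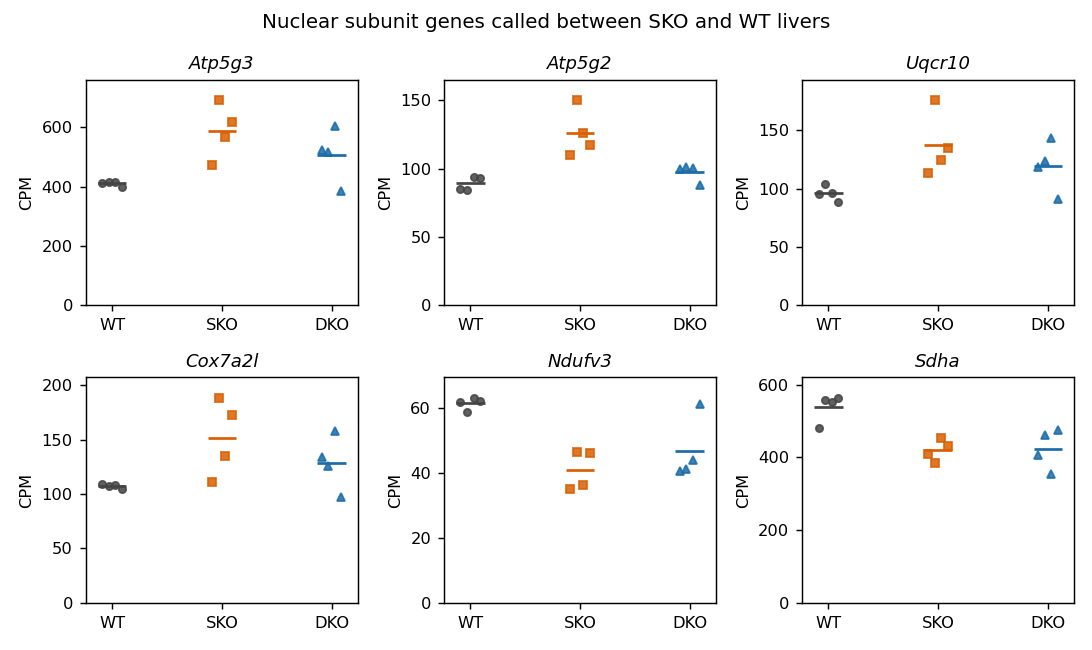
CPM of the 6 nuclear subunit genes called between SKO and WT livers, with 1 point per liver, bars at the means of 4 livers and every axis starting at 0. For each of the 6 genes the SKO and WT livers do not overlap, and in DKO livers replicate 4 lies closest to WT for Ndufv3 and is the lowest for Atp5g3, Atp5g2, Uqcr10 and Cox7a2l.

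The stretches just upstream of the start sites of these 6 genes are shown because they are the nuclear members that moved, in opposite directions. The sequences are from RefSeq (GRCm38.p6), run 5′ to 3′ on the gene's strand and give the last 150 of the 250 bases before the annotated start. Capitals mark matches on either strand to 4 motifs of factors known from nuclear genes for mitochondrial proteins or from promoters at large. The motifs were GCGCA and GCGC with any 1 base between them for NRF1, CCGGAAG for the ETS factor GABP, CCAAT for the CCAAT box and AAGGTCA for the half-site of ERR.
Atp5g3, chr2:73911327-73911476, minus strand: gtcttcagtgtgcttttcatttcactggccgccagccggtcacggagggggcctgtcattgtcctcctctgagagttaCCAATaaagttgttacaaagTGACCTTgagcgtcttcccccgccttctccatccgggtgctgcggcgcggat
Atp5g2, chr15:102671048-102671197, minus strand: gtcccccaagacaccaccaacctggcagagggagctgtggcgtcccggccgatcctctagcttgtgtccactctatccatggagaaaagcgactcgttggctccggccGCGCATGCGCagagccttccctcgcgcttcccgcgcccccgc
Uqcr10, chr11:4704345-4704494, minus strand: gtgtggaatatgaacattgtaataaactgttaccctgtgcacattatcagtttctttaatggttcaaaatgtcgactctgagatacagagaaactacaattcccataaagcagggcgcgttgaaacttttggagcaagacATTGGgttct
Cox7a2l, chr17:83514334-83514483, minus strand: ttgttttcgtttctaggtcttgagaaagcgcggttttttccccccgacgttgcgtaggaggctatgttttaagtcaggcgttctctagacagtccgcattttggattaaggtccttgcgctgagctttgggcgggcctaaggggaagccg
Ndufv3, chr17:31519965-31520114, plus strand: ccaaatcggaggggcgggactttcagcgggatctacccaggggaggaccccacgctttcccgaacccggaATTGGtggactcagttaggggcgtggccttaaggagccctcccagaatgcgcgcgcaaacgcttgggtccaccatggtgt
Sdha, chr13:74350241-74350390, minus strand: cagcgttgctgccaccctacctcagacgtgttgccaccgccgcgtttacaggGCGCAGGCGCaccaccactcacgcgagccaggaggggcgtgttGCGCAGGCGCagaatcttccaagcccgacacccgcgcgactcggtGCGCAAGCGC

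Sdha held 3 NRF1 matches in this window and Atp5g2 held 1, Atp5g3 held 1 CCAAT box and 1 ERR half-site, Uqcr10 and Ndufv3 held 1 CCAAT box each, and Cox7a2l held none of these letters. Among the nuclear members 69 of 88 matched the promoter table. Of these, 13 (18.8%) held the NRF1 motif within 250 bases upstream, beside 4.23% of all 27025 genes in the table, coding or not. The GABP motif was in 12 (17.4%), beside 7.83% of all genes. The ERR half-site was in 5 (7.25%, beside 4.70%) and the CCAAT box in 30 (43.5%, beside 37.5%). These are matches of letters and say nothing of binding in these livers.

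Among genes that regulate OXPHOS expression, Nrf1, which encodes the factor of the first motif, was at 10.6, 10.8, 10.5 and 10.1 CPM in WT and 16.2, 17.4, 14.0 and 14.7 CPM in SKO livers. It rose by 0.57 (SE 0.14, edgeR adjusted p = 0.00760) in SKO livers and by 0.68 (SE 0.13, adjusted p = 0.0165) in DKO livers on the log2 scale. Pprc1, a coactivator of the PGC-1 family, rose too, by 0.92 (SE 0.17, edgeR adjusted p = 0.00171) in SKO and by 1.03 (SE 0.29, adjusted p = 0.0495) in DKO livers. These were the 2 of 12 tested regulators (16.7%) called in each comparison, beside 32.1% of all genes in SKO and 10.5% in DKO against WT livers. At an edgeR unadjusted p under 0.05, 3 of the 12 were higher and 1 lower in SKO livers, and 2 higher and 1 lower in DKO livers. Over all genes these shares were 42% and 29.4% in either direction. The lowest log2 fold changes among the 12 were -1.36 in SKO and -1.01 in DKO livers. Gabpa had log2 fold changes of -0.11 (95% interval -0.44 to 0.22) and -0.13 (-0.43 to 0.17) in SKO and DKO against WT livers, and Tfam, which packages mtDNA, of -0.12 (-0.36 to 0.11) and -0.07 (-0.35 to 0.22). Esrra, which encodes ERRα, with 0.34 (0.05 to 0.63) and 0.09 (-0.17 to 0.35), missed the threshold in both (adjusted p = 0.0690 and 0.464). Ppargc1a, the best known coactivator of these genes, spread from 5.50 to 43.7 CPM in SKO and from 7.22 to 53.0 CPM in DKO livers, so that a change of up to 1.51 lower or 0.57 higher on the log2 scale in SKO livers was within its 95% interval.

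By complex, the nuclear members of complex I lay on both sides of WT in SKO livers. Of 36 tested, 0 rose and 1 (Ndufv3) fell, with 20 fold changes above 1 and 16 below and a median log2 fold change of 0.02. The 1 called is 2.78% of the 36, beside 16.7% higher and 15.4% lower of all genes. At an unadjusted p under 0.05 there were 1 higher and 3 lower, beside 42% of all genes in either direction, and DESeq2 called 1 lower. Of the 7 nuclear core subunits, most of which carry the flavin or iron-sulfur clusters or bind quinone, 0 were called. Ndufs7 and Ndufs8, neighbouring core subunits of the quinone-binding arm named here after their values were seen, had log2 fold changes of 0.41 (edgeR adjusted p = 0.0511) and -0.30 (adjusted p = 0.0833). Ndufb1, a membrane-arm subunit, had a log2 fold change of -0.45 (adjusted p = 0.111).

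All 4 complex II genes had fold changes below 1 in both knockouts, although Sdha in SKO livers was the only call. Over all genes tested, 15.4% were called lower in SKO and 4.39% in DKO livers. Sdhb, the iron-sulfur subunit, was at 188 ± 3.24, 160 ± 26.5 and 163 ± 21.4 CPM in the WT, SKO and DKO groups. Against WT this gave -0.24 (adjusted p = 0.200) and -0.19 (adjusted p = 0.352) on the log2 scale by edgeR. The membrane anchors were nearer to WT, with log2 fold changes in SKO livers of -0.15 for Sdhd and -0.02 for Sdhc (95% intervals -0.40 to 0.09 and -0.27 to 0.23).

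In complexes III, IV and V 1, 1 and 2 nuclear genes rose in SKO livers and 0 fell, by edgeR and by DESeq2 alike, and at an unadjusted p under 0.05 there were also 0 lower. Over all genes tested 16.7% rose and 15.4% fell, and 42% were at an unadjusted p under 0.05. Their median log2 fold changes were 0.17, 0.23 and 0.07 over 8, 16 and 17 tested genes, beside 0.03 over all genes. These medians rest in part on SKO replicate 2. Without that liver they were 0.05, 0.08 and -0.08, and the median of all 81 nuclear genes went from 0.07 to -0.07. The same fit called 3 nuclear genes higher (Atp5g3, Atp5g2 and Uqcr10) and 8 lower, namely, as seen in that fit, Ndufv3, Ndufb1, Ndufb4, Ndufa13, Ndufs8, Sdhb, Atp5k and Atp5h, beside 14.4% higher and 13.7% lower of all 14515 genes tested in it. In the catalytic F1 head of complex V, the β subunit Atp5b, also named after its values were seen, had a log2 fold change of 0.08 (95% interval -0.19 to 0.36).

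SKO replicate 2 was the liver highest in nuclear subunit RNA. Its median deviation from the WT mean over the 81 genes was 0.36 on the log2 CPM scale, with 73 of 81 genes above the WT mean, while SKO replicates 1, 3 and 4 were at -0.18, -0.06 and 0.08. The same liver was the highest for 76 cytosolic ribosomal protein genes, at 1.12 against 0.28, 0.57 and 0.65 in the other SKO livers, and for mitochondrial ribosomal proteins, at 0.36. The cytosolic list was chosen after the data had been seen, by name and a limit on mean counts. Its mtDNA genes were at -0.07. In DKO livers the nuclear medians were -0.12, -0.05, 0.13 and 0.02, and those of cytosolic ribosomal proteins 0.39, 0.40, 0.56 and 0.13. The part that this shared shift played in the fold changes of single genes was not tested.

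**Figure D3:**
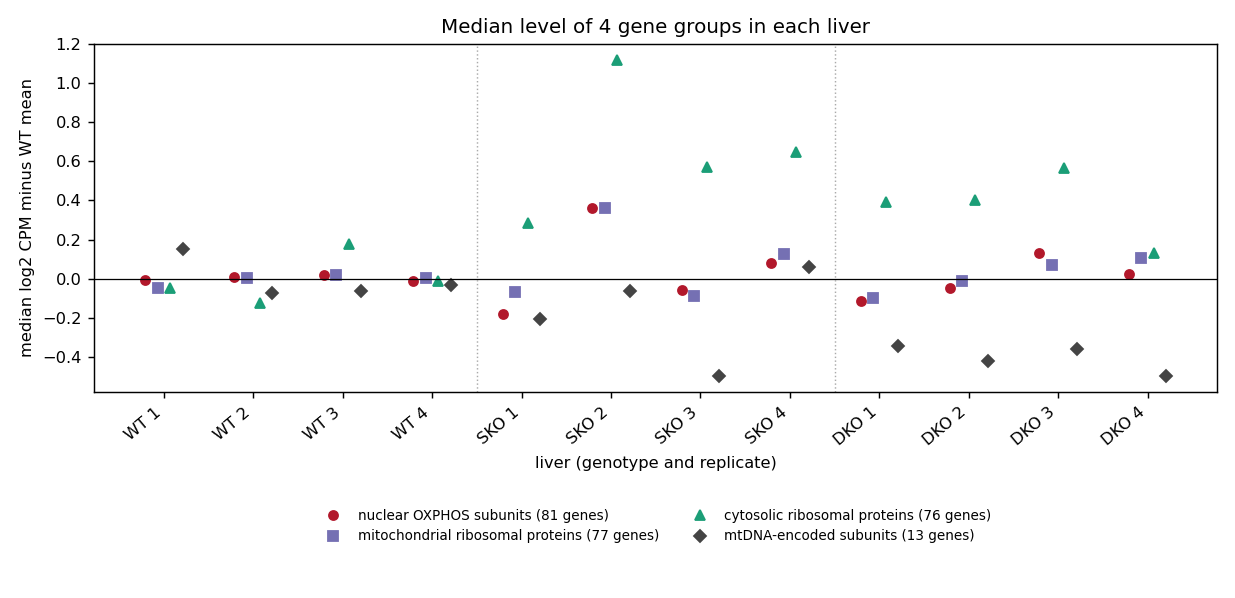
For each liver (x axis) the median over a gene group of the log2 CPM minus the WT mean (y axis) is plotted for nuclear subunit genes, mitochondrial ribosomal proteins, cytosolic ribosomal proteins and mtDNA genes. SKO replicate 2 is the highest liver for the first 3 groups, at 0.36, 0.36 and 1.12, and the mtDNA medians of all 4 DKO livers are at or below -0.34.

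Complex IV is the complex with the most tissue-specific isoforms, and these livers used the forms usual for liver. Cox4i1, Cox6a1, Cox7a2 and Cox8a were at 409 ± 19.6, 330 ± 3.91, 114 ± 2.13 and 192 ± 4.84 CPM in WT livers. Their muscle or lung counterparts Cox6a2, Cox8b and Cox4i2 had 0 to 4 counts per WT liver and were not tested, and Cox7a1 was at 0.824 ± 0.138 CPM. Cox7a1 had a log2 fold change of 0.08 in both knockouts, with 95% intervals of -0.94 to 1.11 and -0.82 to 0.99. Among the liver forms, Cox4i1 had a log2 fold change of 0.34 in SKO livers (adjusted p = 0.103) and of 0.13 in DKO livers (adjusted p = 0.513) by edgeR. The other nuclear members left out by the filter were Cox7b2, Cox8c, Ndufb11b and a second row named Atp5o (ENSMUSG00000116933).

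Ndufa4 had log2 fold changes of -0.14 and -0.07, and its paralog Ndufa4l2, induced by hypoxia in other tissues, of -0.68 (adjusted p = 0.173) and -0.28 (adjusted p = 0.662), in SKO and DKO against WT livers by edgeR. Cox6b2, an isoform best known from testis, was low in all livers. Its values were 1.51, 1.52, 1.17 and 3.52 CPM for WT livers, 2.99, 4.71, 4.05 and 2.64 for SKO livers and 1.83, 2.02, 1.37 and 0.586 for DKO livers. WT replicate 4 alone bridged the WT and SKO groups, and the log2 fold change of 0.89 (SE 0.36) was not called (edgeR adjusted p = 0.0790). Without that liver it was 1.34 with an adjusted p of 0.00905.

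The counts of the mtDNA-encoded genes depend on how reads were assigned, which sets the order in which they are given here. mtDNA is transcribed as long precursors from both strands, which are cut into single mRNAs and rRNAs, so the messages of a strand share a promoter. Per length, however, the 13 genes differed widely in WT livers. On the scale of CPM per kilobase (RPKM), mt-Co1 was at 13064 ± 1254, mt-Cytb at 8414, mt-Nd2 at 7251, mt-Nd1 at 6217, mt-Nd4 at 3453, mt-Nd5 at 3047 and mt-Nd6 at 2883 RPKM. The other genes were far lower, with mt-Atp6 at 298, mt-Co3 at 252, mt-Co2 at 219, mt-Nd4l at 95.1, mt-Nd3 at 94.6 and mt-Atp8 at 2.38 RPKM.

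Of these low genes, 5 have a nearly full-length annotated copy on chromosome 1. In the GENCODE M21 transcripts (GRCm38), the annotated copy matched mt-Co2 over 681 bases, mt-Atp6 over 678, mt-Co3 over 783 and mt-Nd4l over 294 with 0 differences, and mt-Nd3 over 345 bases with 1 difference. mt-Atp8 lies between mt-Co2 and mt-Atp6. The copies of mt-Co1 and mt-Nd4 cover only 31.8% and 63.6% of these genes, the former with 6 differences. The first 60 bases of mt-Co2 and of its copy Gm28661 are shown because their letters are the same, and those of mt-Nd3 and its copy Gm28438 because they hold the only difference between that pair, T3C, counted from the first base of the gene and given in capitals. Sequences run 5′ to 3′ on the gene's strand in GRCm38.
mt-Co2, chrMT:7013-7072, plus strand: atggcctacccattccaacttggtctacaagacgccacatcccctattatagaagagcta
Gm28661, chr1:24615506-24615565, minus strand: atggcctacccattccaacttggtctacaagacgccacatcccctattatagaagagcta
mt-Nd3, chrMT:9459-9518, plus strand: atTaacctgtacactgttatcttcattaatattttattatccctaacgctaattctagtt
Gm28438, chr1:24613060-24613119, minus strand: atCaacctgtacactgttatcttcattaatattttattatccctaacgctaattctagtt

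The count table lists both members of each pair. The copy of mt-Co2 had 1549 to 2789 counts in WT livers against 1987 to 3294 for mt-Co2 itself, and the copy of mt-Atp6 had 3268 to 4061 against 2904 to 4584. How reads that match both places were counted is not given in the sources used here. Results are therefore given for the genes as deposited and, for genes with a copy, also with both rows summed, an alternative chosen after the data had been seen. No such copy was paired with mt-Nd1, mt-Nd2, mt-Nd5, mt-Nd6 or mt-Cytb.

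Among genes not paired with a copy, mt-Nd5 fell in both knockouts. mt-Nd5, a proton-pumping core subunit of complex I at chrM:11742-13565, stood at 6458, 5475, 5066 and 5232 CPM in WT livers. The SKO livers held 3935, 2080, 3516 and 3783 CPM and the DKO livers 3325, 3280, 1894 and 2725 CPM. Every knockout liver lay below every WT liver. The gene fell by 0.74 (SE 0.20, edgeR adjusted p = 0.0153) in SKO and by 0.98 (SE 0.22, adjusted p = 0.0255) in DKO livers on the log2 scale. The SKO call held in 8 of 8 fits that left out a liver, but the DKO call held in 1 of 8, the fit without DKO replicate 4. Over all 15 alternatives its adjusted p-value in DKO livers ran from 7.43e-05 to 0.0745 and its log2 fold change from -1.07 to -0.83. Over all genes, the 7 fits without the DKO call had 124 to 363 genes higher and 120 to 356 lower, in place of 876 and 634.

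mt-Nd6, the only mtDNA subunit gene on the opposite strand (chrM:13552-14070), stood at 1684, 1383, 1563 and 1356 CPM in WT and at 950, 811, 719 and 806 CPM in DKO livers. The groups did not overlap and mt-Nd6 fell by 0.85 in DKO livers on the log2 scale (SE 0.15, edgeR adjusted p = 0.0151). This call held in 7 of 8 fits that left out a liver and was lost without WT replicate 1. In SKO livers mt-Nd6 stood at 956, 1257, 986 and 1556 CPM, overlapping WT, with a log2 fold change of -0.34 (SE 0.18, edgeR adjusted p = 0.173). Without SKO replicate 4, the only SKO liver within the WT range, mt-Nd6 was called lower there too, at -0.49 (adjusted p = 0.0409), and so was mt-Nd2, at -0.53 (adjusted p = 0.0271). The DKO against SKO difference was -0.51 (SE 0.20) with an adjusted p of 0.725, so the genotypes were not shown to differ in this gene. The ends of mt-Nd5 and mt-Nd6 overlap by a few bases on opposite strands, and whether counting used strand is not given in the sources used here.

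mt-Nd2 had log2 fold changes of -0.42 in SKO (edgeR adjusted p = 0.0844) and -0.60 in DKO livers (adjusted p = 0.0901), and all DKO livers lay below all WT livers. The SKO livers also lay below the WT livers, but by a margin lost in rounding, since SKO replicate 4 and WT replicate 3 were both at 7012 CPM. DESeq2 called it in both, at adjusted p-values of 0.0347 and 0.0136. mt-Cytb, the catalytic mtDNA subunit of complex III, averaged 9625 ± 407, 8048 ± 938 and 7509 ± 528 CPM in the WT, SKO and DKO groups, without overlap in either comparison. Its log2 fold changes were -0.26 and -0.35 (edgeR adjusted p = 0.197 and 0.211). In DKO livers it was called lower by DESeq2 (adjusted p = 0.00980) and by edgeR without DKO replicate 4 (adjusted p = 0.0371). mt-Nd1 had log2 fold changes of 0.05 and -0.17 (95% intervals -0.28 to 0.39 and -0.55 to 0.21).

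**Figure D4:**
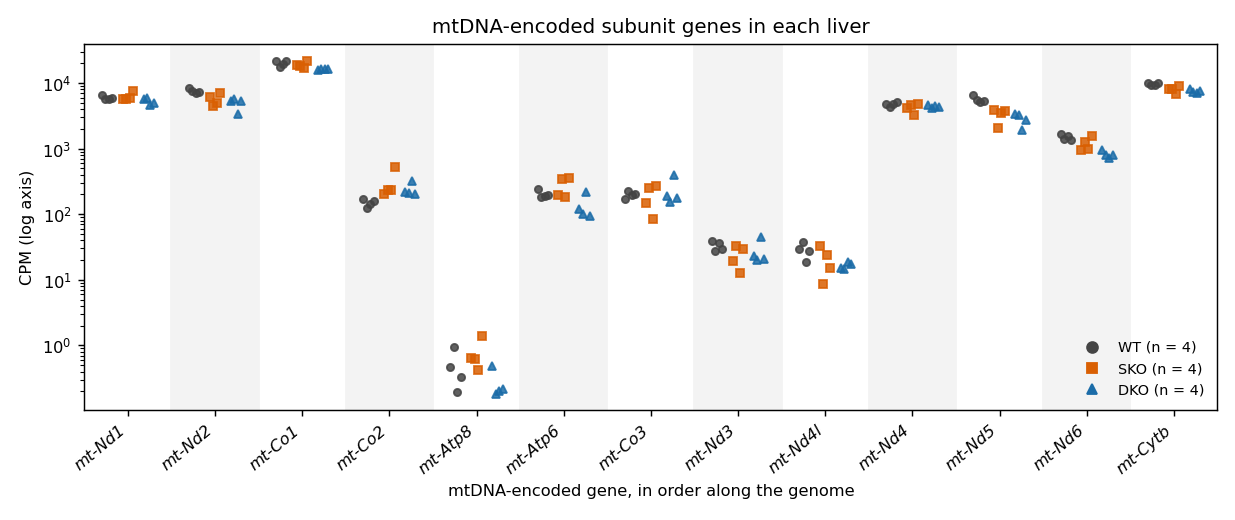
CPM on a log axis of the 13 mtDNA-encoded genes in order along mtDNA, with 1 point per liver and 4 livers per genotype. The genes from mt-Co2 to mt-Nd4l lie below the rest, mt-Nd5 is lower in all 8 knockout livers than in any WT liver, and mt-Nd6 is lower in all 4 DKO livers than in any WT liver.

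Among the genes with a copy on chromosome 1, mt-Co2 rose in both knockouts as deposited. mt-Co2, the complex IV subunit that accepts electrons from cytochrome c (chrM:7013-7696), stood at 171, 126, 142 and 160 CPM in WT livers. Values of 204, 237, 235 and 519 CPM were found in SKO livers and of 217, 209, 320 and 200 CPM in DKO livers. All knockout livers were above all WT livers, with SKO replicate 4 far above the rest, and the log2 fold changes were 0.99 (SE 0.27, edgeR adjusted p = 0.0145) and 0.67 (SE 0.18, adjusted p = 0.0476). Summed with its copy, mt-Co2 was not called in either comparison, at 0.66 (edgeR adjusted p = 0.0574) and 0.48 (adjusted p = 0.178). Without SKO replicate 4 the SKO value as deposited was 0.59 (edgeR adjusted p = 0.0117). As deposited, its SKO call was lost without WT replicate 2, and its DKO call held only without DKO replicate 4 among the fits that left out a liver.

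mt-Nd4l, a core subunit of complex I (chrM:9877-10173), stood at 29.2, 37.7, 18.9 and 27.2 CPM in WT livers and between 14.8 and 19.0 CPM in DKO livers. The groups overlapped by a small margin, and it fell by 0.76 on the log2 scale (SE 0.20, edgeR adjusted p = 0.0404). Summed with its copy it fell by 0.62 (edgeR adjusted p = 0.0266), while leaving out single livers kept the call as deposited in 2 of 8 fits, those without DKO replicate 4 or WT replicate 3. In SKO livers mt-Nd4l was at -0.50 (edgeR adjusted p = 0.282), and summed at -0.56 (adjusted p = 0.106). mt-Atp6, a complex V subunit, had log2 fold changes of 0.41 in SKO and -0.59 in DKO livers (edgeR adjusted p = 0.184 and 0.167), and summed of 0.12 and -0.54. Without DKO replicate 3 it was called lower in DKO livers as deposited, at -0.94 (adjusted p = 0.0333). mt-Co1, the catalytic core of complex IV, averaged 20184 ± 1937, 18811 ± 1937 and 16198 ± 297 CPM, and all 4 DKO livers lay below WT (log2 fold change -0.31, edgeR adjusted p = 0.325, summed -0.30). DESeq2 called it lower in DKO livers (adjusted p = 0.0338), and in SKO livers it was at -0.11, summed -0.10. mt-Co3, mt-Nd3 and mt-Nd4 were not called, at log2 fold changes of -0.08, -0.49 and -0.19 in SKO and 0.23, -0.27 and -0.11 in DKO livers. Summed with their copies, mt-Co3 was at -0.05 and 0.26 and mt-Nd4 at -0.19 and -0.11, while mt-Nd3 lay on the other side of WT, at 0.17 and 0.23. mt-Atp8, at 0.184 to 1.40 CPM in all livers, was tested in SKO against WT only (log2 fold change 0.66, adjusted p = 0.383).

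In all, 1 of 13 mtDNA genes rose and 1 fell in SKO against WT livers, beside 16.7% and 15.4% of all genes, with a median log2 fold change of -0.19. This median was -0.09 without SKO replicate 3, -0.30 without SKO replicate 4 and -0.10 with summed copies. In DKO against WT livers 1 of 12 rose and 3 fell, beside 6.06% and 4.39% of all 14448 genes tested, with a median of -0.33 beside 0.03 over all genes. The higher nuclear rRNA share of all DKO livers stands beside this count, and its part in it was not tested. Of these 12 fold changes, 10 were below 1. The SKO and DKO comparisons share the same 4 WT livers.

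In the livers labelled as double knockouts, no nuclear subunit gene passed the test against WT. By edgeR 0 of 81 nuclear members were called, beside 10.5% of all genes tested. DESeq2 also called 0, and at an unadjusted p under 0.05 there were 0 higher and 2 lower, namely Ndufv3 and Sdha, beside 29.4% of all genes in either direction. The median log2 fold change was 0.01, and 72 of the 81 intervals lay within 1.5-fold of WT. The groups did not overlap for 2 of 81, Sdha and Cox7a2, beside 16.8% of all genes tested.

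This count depended on DKO replicate 4. Ndufv3 stood at 40.5, 41.2, 43.9 and 61.2 CPM in DKO livers, where replicate 4 alone was within the WT range, and its log2 fold change was -0.38 (SE 0.15, edgeR adjusted p = 0.123). Without that liver it was -0.55 with an adjusted p of 0.000884. The same fit called Atp5g3, Cox7a2l and Uqcr10 higher, at log2 fold changes of 0.42, 0.38 and 0.43, and Sdha and Ndufs8 lower, at -0.40 and -0.28, which with Ndufv3 makes 3 higher and 3 lower of 81, beside 18.4% higher and 17.5% lower of all 14634 genes tested in it. Of the 12 mtDNA genes tested in this fit, 1 (mt-Co2) was higher and 5 were lower. DKO replicate 4 is also a liver with Xist counts and the DKO liver with the highest hepatocyte marker sum, and the part of these in the difference was not tested. Atp5g2 was at 97.2 ± 6.20 CPM in DKO livers, with a log2 fold change of 0.14 (SE 0.10, edgeR adjusted p = 0.410). DKO replicate 4 was the lowest for this gene too, at 87.9 CPM against 99.4 to 101 in the other DKO livers.

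Between DKO and SKO livers 0 of 93 tested subunit genes were called by edgeR, beside 0.0209% (3) of all 14363 genes tested, 0.00696% higher and 0.0139% lower. DESeq2 called 0 as well, and at an unadjusted p under 0.05 there were 0 higher and 4 lower: Cox6b2, Atp5g2, mt-Atp6 and mt-Nd6, beside 6.49% of all genes in either direction. The medians were -0.05 for nuclear and -0.20 for mtDNA genes, and 62 of 81 nuclear intervals lay within 1.5-fold. Neither median was steady. The nuclear one was 0.07 without SKO replicate 2, 0.01 without DKO replicate 1, -0.12 without SKO replicate 1 and -0.11 without both livers with Xist counts, and the mtDNA one -0.09 without SKO replicate 4. Cox6b2 had the largest difference at -1.30 (SE 0.37, edgeR adjusted p = 0.483), and all 4 DKO livers were below all SKO livers. Atp5g2 did not overlap either (-0.35, SE 0.15, adjusted p = 0.734). With mt-Co1 and mt-Nd6 these were the 4 members without overlap, beside 3.94% of all genes tested. mt-Atp6 stood at 199, 343, 181 and 358 CPM in SKO and 120, 101, 219 and 95.3 CPM in DKO livers, where DKO replicate 3 overlapped the SKO range (-0.99, SE 0.32, edgeR adjusted p = 0.601).

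**Figure D5:**
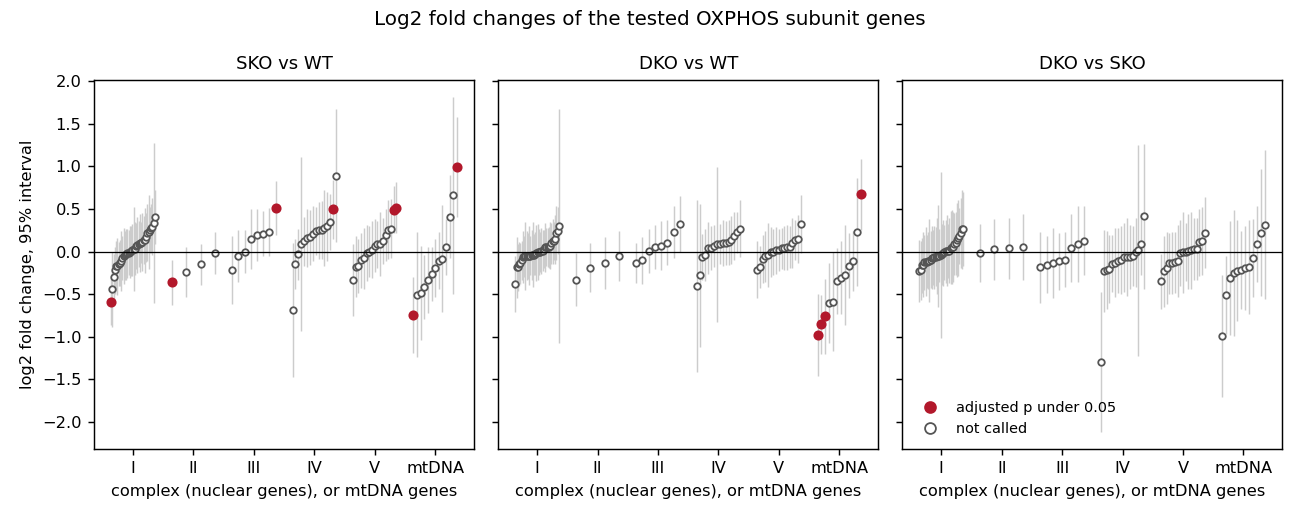
Log2 fold changes (y axis) of each tested nuclear gene by complex and of the mtDNA genes, with 95% intervals as grey lines, in the 3 comparisons of 8 livers each. Filled red points are genes called by edgeR: 8 in SKO against WT, 4 in DKO against WT, all of them mtDNA genes, and 0 in DKO against SKO.

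Genes that serve the chain but carry other names were also measured. Cycs, the mobile electron carrier cytochrome c, was at 136, 121, 115 and 109 CPM in WT and 141, 258, 215 and 220 CPM in SKO livers and rose by 0.79 (SE 0.17, edgeR adjusted p = 0.00469). Ndufab1, the acyl carrier protein that is also part of complex I, rose by 0.52 (SE 0.12, edgeR adjusted p = 0.00657) from 44.3 ± 1.27 to 63.5 ± 8.44 CPM. Cyc1, the cytochrome c1 subunit of complex III, had a log2 fold change of 0.27 (adjusted p = 0.135). With Etfa, Etfb and Etfdh these form a list of 6, of which 3 rose and 0 fell in SKO livers (50% beside 32.1% of all genes, for a list this short), while in DKO livers edgeR called 0 of 6 and 3 were higher at an unadjusted p under 0.05.

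In the synthesis of coenzyme Q, 3 of 13 genes rose and 1 fell in SKO livers, 30.8% of the list beside 32.1% of all genes, and in DKO livers 1 rose and 0 fell (7.69% beside 10.5%). Coq8a, a kinase-like protein of the synthesis complex, stood at 225, 264, 159 and 188 CPM in WT and 33.7, 19.1, 41.3 and 30.3 CPM in SKO livers. It fell by 2.75 on the log2 scale (SE 0.24, edgeR adjusted p = 1.18e-05). In DKO livers Coq8a stood at 65.9, 86.2, 44.2 and 212 CPM, with replicate 4 within the WT range (log2 fold change -1.02, adjusted p = 0.149). Coq7, Coq4 and Coq3, enzymes or scaffolds of ring modification, rose in SKO livers by 0.99, 1.03 and 0.40 (edgeR adjusted p = 0.000754, 0.00594 and 0.0282), and Coq4 in DKO livers by 0.98 (adjusted p = 0.0226).

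Of 49 tested assembly factors 5 rose and 6 fell in SKO livers, and 1 rose and 1 fell in DKO livers. That is 22.4% and 4.08% of the list, beside 32.1% and 10.5% of all genes. Cox19 and Coa4, which act in complex IV assembly, rose by 0.94 and 0.88 in SKO livers (edgeR adjusted p = 0.00414 and 0.0256), and Coa4 by 0.98 in DKO livers (adjusted p = 0.0454). Dmac2 and Ndufaf6, which act in complex I assembly, fell by 1.02 and 0.92 in SKO livers (adjusted p = 0.000662 and 0.00273). Taco1, the translational activator of mt-Co1, fell in both, by 0.73 (adjusted p = 0.00519) and 0.63 (adjusted p = 0.0204). Among 31 tested genes of mtDNA replication, transcription and RNA handling, 2 rose and 2 fell in SKO livers (12.9% beside 32.1% of all genes) and 1 rose in DKO livers (3.23% beside 10.5%). Polg2, the accessory subunit of mtDNA polymerase, fell by 0.97 in SKO livers (edgeR adjusted p = 0.000559), and Mgme1, an mtDNA exonuclease, rose by 0.93 and 1.16 (adjusted p = 0.0167 and 0.0266). Pnpt1, an RNA-degrading phosphorylase, fell by 0.55 and Fastk, a founding member of a family of mitochondrial RNA-binding proteins, rose by 0.61 in SKO livers (adjusted p = 0.00511 and 0.00684). Of 77 tested mitochondrial ribosomal proteins 9 rose and 5 fell in SKO livers, and 4 rose and 0 fell in DKO livers, where 12 were higher and 3 lower at an unadjusted p under 0.05, beside 29.4% of all genes in either direction. These are 18.2% and 5.19% of the list, beside 32.1% and 10.5% of all genes.

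Between DKO and SKO livers edgeR called 0 genes of these lists. The smallest p-value in the lists was that of Coq8a, at a log2 fold change of 1.75 (SE 0.46, adjusted p = 0.439). Cox10, which makes the heme A of complex IV, was at -0.50 (adjusted p = 0.664) and Top1mt, the mtDNA topoisomerase, at 0.36 (adjusted p = 0.735). These 3 were the genes at an unadjusted p under 0.05 among the assembly, coenzyme Q, carrier, mtDNA expression, regulator and mitochondrial ribosome lists.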

How the data were processed

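RNA-seq counts of 12 livers were used, 4 per genotype. The table deposited by the authors holds whole-number counts for each Ensembl gene without normalization, with gene lengths and coordinates. The submitters' processing notes name HISAT2, GRCm38 and mm10, while the counting program, its strand setting and its handling of reads with several matches are not given in the sources used here. Only 1 of 88 nuclear members has the start listed for GRCm38, so nuclear coordinates are given only for RefSeq promoters and GENCODE M21 copies. Deposited FPKM values, and the authors' fold changes and p-values for each pair of groups, were not used.

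Each pair of genotypes was fitted in its 8 livers with edgeR 4.0.16 (R 4.3.3): TMM normalization, filterByExpr, quasi-likelihood test, two-sided, Benjamini-Hochberg adjustment over all genes tested, and a threshold of 0.05. The SE is the log2 fold change over the square root of F, and 95% intervals use the test's degrees of freedom. CPM are TMM-scaled, whereas percent shares use raw totals unless TMM-scaled totals are named. No batch is given in the labels, and within each genotype no library was a copy of another.

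Genes were named by rule: all mtDNA and SDH genes, called members by complex, the 3 largest and smallest fold changes, isoform pairs, and the leading genes of the other lists. Some of the leading genes of the other lists are not printed here, among them Ppargc1b, Ppara and Gabpb1 of the regulators. The members, the rule and the lists were chosen with earlier results of these data known. Alternatives tried were DESeq2 1.42.0, RLE and upper-quartile normalization, no filter, 1 fit of all 12 livers, a replicate block, leaving out livers, and totals without the MT chromosome. Summed copies, the cytosolic ribosomal protein list and leaving out SKO replicate 2 with DKO replicate 3 were added after the data had been seen.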

Additional observations from a re-analysis of the deposited data

Results flagged for a closer look

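In 15 of 108 groups of 4 livers the highest or lowest liver had a gap to the nearest other liver, as a share of the range, above Dixon's 95% critical value. Chance flags about 1 in 20 groups.

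WT replicate 4 was at 3.52 CPM of Cox6b2 against 1.17 to 1.52 in the other WT livers, and WT replicate 3 at 204 CPM of Sdhc against 175 to 178. WT replicate 1 was at 482 CPM of Sdha against 551 to 563, and at 6644 CPM of mt-Nd1 against 5636 to 5806. In SKO livers, replicate 2 was at 307 CPM of Cox8a against 201 to 204. SKO replicate 4 was at 519 CPM of mt-Co2 against 204 to 237, and at 7539 CPM of mt-Nd1 against 5628 to 5911.

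In DKO livers, replicate 4 was at 87.9 CPM of Atp5g2 against 99.4 to 101, and at 61.2 CPM of Ndufv3 against 40.5 to 43.9. DKO replicate 3 was at 237 CPM of Cox8a against 195 to 196, at 320 CPM of mt-Co2 against 200 to 217, at 396 CPM of mt-Co3 against 156 to 187, at 44.7 CPM of mt-Nd3 against 19.8 to 22.8, and at 3348 CPM of mt-Nd2 against 5316 to 5603. DKO replicate 1 was at 0.482 CPM of mt-Atp8 against 0.184 to 0.213.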

How the results depend on the processing

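With the replicate number as a block, 1 nuclear gene was lower in SKO against WT livers, and 0 mtDNA genes were higher and 1 lower in DKO against WT livers, in place of 2, 1 and 3. The labels do not tie the numbers to shared animals or batches, and deviations of same-numbered livers correlated at -0.340 to 0.0887, and in 2 of 24 cases over the 3 comparisons the closest liver of the other group had the same number, so the numbers were not taken to pair the livers. The nuclear count lower in SKO livers was 1 also without a filter and with all 12 livers in 1 fit. The mtDNA count higher in DKO livers was 0 also in that fit and with upper-quartile normalization, and with summed copies 0 mtDNA genes were higher in either knockout. DESeq2 called 2 mtDNA genes lower in SKO and 6 in DKO livers.

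Leaving out each liver in turn gave 2 to 6 nuclear genes higher and 1 to 8 lower, and 0 to 1 mtDNA genes higher and 1 to 3 lower, in SKO against WT livers. In DKO against WT livers it gave 0 to 3 nuclear genes higher and 0 to 3 lower, and 0 to 1 mtDNA genes higher and 0 to 5 lower. Over all genes, calls in DKO against WT livers went from 876 higher and 634 lower to 2698 and 2555 without DKO replicate 4, and to 124 to 363 and 120 to 356 without any 1 of the other 7 livers. Without WT replicate 1, 0 mtDNA genes were called lower in DKO livers, beside 132 of all genes, and their median was -0.32 in place of -0.33. The highest member counts came without SKO replicate 1, 2 or 4 or DKO replicate 4. In SKO or DKO against WT, leaving out the liver with Xist counts is the same fit as leaving out that replicate. The cause of these differences was not tested. No called value changed direction under these alternatives. Depth limits mt-Atp8 and the isoforms under 1 CPM.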

Other observations

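Ndufa12, a complex I subunit named here after its values were seen, varied widely within WT and DKO livers. It was at 14.4, 13.5, 12.4 and 55.5 CPM in WT livers. SKO livers held 26.1, 34.0, 23.3 and 38.2 CPM, and DKO livers 43.2, 10.4, 48.3 and 14.4 CPM. Its log2 fold change in SKO against WT livers was 0.34 (SE 0.43, edgeR adjusted p = 0.597), and without WT replicate 4 it was 1.16 (adjusted p = 0.00153). In DKO against WT livers the 95% interval ran from -1.08 to 1.67.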
